A study of Mus musculus with 9 samples.

Results

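The IL-1, IL-18 and IL-33 receptors are described here in regulatory T cells (Tregs) from mice with a Treg-specific deletion of Ezh2, as the 7 genes Il18r1, Il18rap, Il1rl1, Il1r1, Il1r2, Il1rl2 and Il1rap. All 7 were found among the 43432 genes of the deposited table, and all 7 passed the filter on low counts that left 13685 genes for testing. RNA was sequenced from 9 cultures of mouse Tregs, 4 Ezh2-deficient and 5 WT, all on the C57BL/6 background. Tregs high for the lymph node homing receptor CD62L were sorted, stimulated with beads that carry anti-CD3 and anti-CD28, given 2000 U/ml IL-2 and taken on day 4. Both groups carry Foxp3-Cre-GFP, a Cre recombinase fused to GFP and driven by the Treg gene Foxp3, and R26-LSL-RFP, a reporter that Cre switches on. The Ezh2-deficient mice are Ezh2-fl/fl, WT replicate 1 is Ezh2-fl/+ and WT replicates 2 to 5 are Ezh2-+/+. Deletion is therefore limited to cells that have expressed Foxp3. The labels do not give the age of the mice or the exons that the floxed allele loses.

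These receptors work in pairs. A chain that binds the ligand is joined by an accessory chain, and the TIR domains of both then gather the adaptor MyD88, the IRAK kinases and the ubiquitin ligase TRAF6, from which NF-kappaB and MAP kinases are switched on. Il1r1 binds IL-1, Il1rl1 (ST2) binds IL-33 and Il1rl2 binds IL-36, all with Il1rap as the accessory chain, whereas Il18r1 and its accessory chain Il18rap form the IL-18 receptor. Il1r2 binds IL-1 without a signalling TIR domain and acts as a decoy. In Tregs, ST2 is known from populations of tissues such as fat and lung, and IL-18 is best known for acting with IL-12 on interferon-gamma production by T helper 1 and NK cells. Ezh2 is the enzyme of Polycomb repressive complex 2, which methylates histone H3 and keeps genes silent.

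Of the 7 genes, 6 lie side by side on chromosome 1, all on the plus strand and with no other protein-coding gene between them in GENCODE M21 (GRCm38). They span 477.627 kb, from 40074079 to 40551705, in the order Il1r2, Il1r1, Il1rl2, Il1rl1, Il18r1 and Il18rap. The end of Il1rl1 and the first start of Il18r1 are 136 bases apart, and Il18r1 and Il18rap are 14507 bases apart. Il1rap lies alone on chromosome 16, where it starts at 26581704. Shown first is the whole interval between Il1rl1 and Il18r1, because it joins the gene with the highest level to its neighbour. Next come the bases before the start of the full-length Il18r1 transcripts and before the start of Il18rap, the IL-18 receptor genes that rose, and then those before both RefSeq starts of Il1rl1. Sequences are from RefSeq on GRCm38.p6, plus strand, cut where an annotated exon lies, and all 7 genes matched with 11 start sites in all.
Il1rl1 to Il18r1 interval, chr1:40465416-40465551: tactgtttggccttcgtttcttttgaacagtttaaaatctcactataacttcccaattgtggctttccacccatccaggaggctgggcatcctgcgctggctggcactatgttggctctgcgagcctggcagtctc
Il18r1, chr1:40465811-40465969: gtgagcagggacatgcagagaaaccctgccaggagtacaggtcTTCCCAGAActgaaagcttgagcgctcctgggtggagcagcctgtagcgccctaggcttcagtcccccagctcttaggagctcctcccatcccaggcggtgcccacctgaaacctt
Il18rap, chr1:40515112-40515361: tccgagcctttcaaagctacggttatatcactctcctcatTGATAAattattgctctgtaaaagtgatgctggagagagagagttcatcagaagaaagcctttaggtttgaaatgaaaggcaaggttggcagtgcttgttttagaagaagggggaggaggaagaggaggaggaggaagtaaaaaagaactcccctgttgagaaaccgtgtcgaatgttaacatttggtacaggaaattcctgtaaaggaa
Il1rl1, first start, chr1:40429320-40429569: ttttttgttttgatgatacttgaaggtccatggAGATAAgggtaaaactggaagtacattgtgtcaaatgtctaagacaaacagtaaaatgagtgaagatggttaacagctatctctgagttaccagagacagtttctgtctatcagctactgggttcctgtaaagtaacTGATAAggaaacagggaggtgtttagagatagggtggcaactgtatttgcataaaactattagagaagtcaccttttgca
Il1rl1, second start, chr1:40439379-40439626: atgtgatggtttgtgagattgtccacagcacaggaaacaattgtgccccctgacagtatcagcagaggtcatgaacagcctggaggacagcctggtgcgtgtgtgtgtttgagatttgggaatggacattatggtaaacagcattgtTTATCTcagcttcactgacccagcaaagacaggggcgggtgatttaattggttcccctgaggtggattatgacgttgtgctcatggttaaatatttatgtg

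Capitals mark letters found by a search of both strands for motifs of factors known in T cells: TTCNNNGAA for STAT factors, AGATAA or its variant TGATAA for GATA factors, TGTGGT for RUNX, TGANTCA for AP-1 and the kappaB consensus. Both GATA forms share their last letters and were counted apart, and reverse complements are marked as they read on the plus strand. Among 32851 promoter windows of 250 bases, 7.02% hold TTCNNNGAA, 9.99% AGATAA, 7.94% TGATAA, 14.1% TGTGGT, 6.75% TGANTCA and 3.90% the kappaB consensus. The window before the full-length Il18r1 transcripts held 2 matches to TTCNNNGAA, 219 and 152 bases before the start. The nearer is inside the printed stretch. That stretch lies in an intron of the 2 Il18r1 transcripts of 372 codons, which start further upstream, and ends at the base before the start of a transcript of 267 codons. Il18rap held TGATAA 210 bases before its start. The first Il1rl1 window held AGATAA 217 bases and TGATAA 80 bases before the start, and the second a reverse complement of AGATAA 103 bases before it, with TGTGGT 6 bases before it, across the end of the printed stretch and so not in capitals. The Il18r1 windows before the starts at 40465552 and 40465621 held 0 matches. Matches also lay before receptor genes that were not called. Il1r2 held TTCAAGGAA 111 bases and TTATCA, a reverse complement of TGATAA, 86 bases before its start. Il1rl2 held a reverse complement of TGTGGT 247 bases before its start. A kappaB match lay 232 bases before the Il1r1 start at 40266586. CpG dinucleotides numbered 0 and 3 in the Il1rl1 windows, 3, 7 and 6 in those of Il18r1 and 4 in that of Il18rap. The median promoter window has 6. Il1r2 had 14 and Il1rap 30. These matches describe letters only, since no binding or histone mark was measured here.

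Total counts were 33718125 to 62201921 per Ezh2-deficient and 32469450 to 59796319 per WT library. The design text calls the libraries of a group biological replicates. Ezh2 fell from 296 ± 50.5 CPM (counts relative to the size of the library; SD, n = 5) in WT to 161 ± 6.49 CPM (SD, n = 4) in Ezh2-deficient libraries, with no overlap (log2 fold change -0.88, edgeR adjusted p = 0.000363). Counts over the whole gene, with the floxed exons not known, do not show how much functional Ezh2 was left. The Treg genes Foxp3, Il2rb, Lrrc32 and Nt5e rose, and the other 8 of 12 Treg markers did not pass, where 13.1% of all 13685 genes rose. Libraries of both groups differed in Cd8a, a gene of CD8 T cells, at 0.361 to 79.9 CPM in Ezh2-deficient and 1.98 to 97.6 CPM in WT libraries. They also differed in a hypoxia score, the mean z over 24 hypoxia-response genes. It was above 0 in Ezh2-deficient replicates 1 and 4 and WT replicates 1, 2 and 4, and below 0 in the other 4.

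Ezh2-deficient Tregs held on average more transcript of both chains of the IL-18 receptor. Il18r1, the chain that binds IL-18, was 2.41-fold higher and Il18rap, its accessory chain, 1.61-fold higher. For Il18rap the groups overlapped, and its call held in only 10 of 20 alternative analyses of the same libraries. The decoy receptor Il1r2 was lower on average (4.89 against 10.2 CPM) and missed the threshold, as did Il1rl1, Il1rap, Il1r1 and Il1rl2. So 2 of 7 receptor genes were called by edgeR at an adjusted p under 0.05, both higher, where 21.9% of all 13685 genes passed in either direction, 13.1% higher and 8.8% lower. A share of 2 in 7 is near that background and is no result about the receptors as a group. Their median log2 fold change was 0.20, against 0.0026 over all genes tested.

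**Figure D1:**
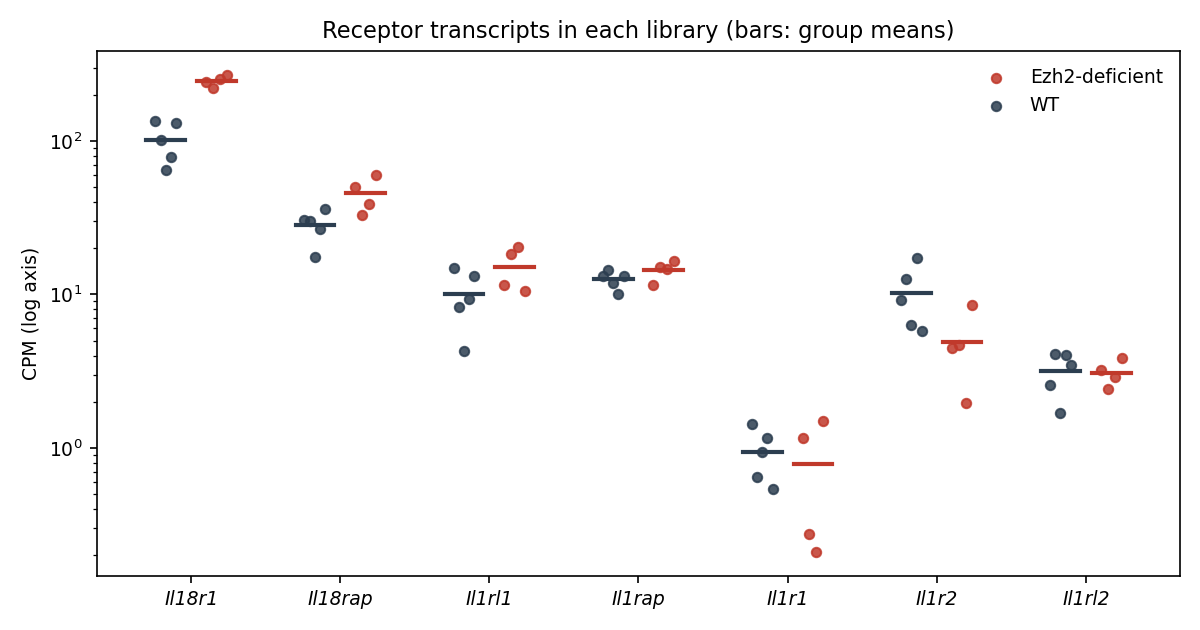
CPM (log axis) of the 7 receptor genes in each of the 4 Ezh2-deficient and 5 WT libraries, with bars at the group means. The Il18r1 points of the groups do not overlap (221.9 to 269.9 against 64.5 to 134 CPM), whereas the points of the other 6 genes do.

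Il18r1 (ENSMUSG00000026070; chromosome 1, 40465552 to 40500854, protein coding) stood at 239.8, 222, 252 and 269.9 CPM in Ezh2-deficient libraries 1 to 4. In WT libraries 1 to 5 it stood at 134, 101, 64.5, 78.2 and 131 CPM. Every Ezh2-deficient library was above every WT library, and the WT libraries spread more widely than the Ezh2-deficient ones. Its mean was 246 ± 20.2 CPM (SD, n = 4) against 102 ± 31.2 CPM (SD, n = 5), from 43193 and 23442 counts. The log2 fold change was 1.27 (SE 0.20, 95% interval 0.83 to 1.71, edgeR adjusted p = 0.0016). Among all genes tested, 21.2% had groups that did not overlap, and 4.79% passed at 2-fold or more higher. WT replicates 1 and 5 had the highest WT levels, and replicate 1 is the library with 1 floxed allele. Without replicate 1 the log2 fold change was 1.38 (adjusted p = 0.00135).

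Il18r1 kept a positive log2 fold change of 1.12 to 1.43 in all 20 alternatives and passed in 19. The exception was the fit within the 4 libraries with a hypoxia score below 0, where it was 1.25 (adjusted p = 0.0827) with 2 libraries in each group. Within the 5 libraries with a score above 0 it was 1.28 (adjusted p = 0.00471). Over all 9 libraries the log2 fold change of Il18r1 was 1.27, and differences between these values were not tested. CD8 T cells are another known source of this transcript, and without replicate 4 of both groups, where Cd8a was highest, the value was 1.14 (adjusted p = 0.0147). Summed CD8 markers were 14.2 to 130 CPM in Ezh2-deficient and 16.2 to 147 CPM in WT libraries, and 0 of 2 passed the test. In bulk RNA, more cells of one kind and more RNA per cell cannot be told apart.

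Il18rap (ENSMUSG00000026068; chromosome 1, 40515362 to 40551705, protein coding) stood at 50.2, 32.7, 38.7 and 60.0 CPM in the Ezh2-deficient libraries. The WT libraries were at 30.3, 30.3, 17.6, 26.9 and 35.9 CPM. The groups overlapped, because Ezh2-deficient replicate 2 lay below WT replicate 5. Its mean was 45.4 ± 12.2 CPM (SD, n = 4) against 28.2 ± 6.75 CPM (SD, n = 5), a log2 fold change of 0.69 (SE 0.21, 95% interval 0.23 to 1.15, edgeR adjusted p = 0.0365). This call was near the threshold of 0.05 and depended on which libraries were in the fit. It was lost when any one of Ezh2-deficient replicates 1, 3 and 4 or WT replicates 1 to 4 was left out (log2 fold change 0.50 to 0.73, adjusted p = 0.0536 to 0.123), and was kept without Ezh2-deficient replicate 2 or WT replicate 5. The log2 fold change was 0.92 within the libraries with a hypoxia score above 0 (adjusted p = 0.00282) and 0.39 within those below 0 (adjusted p = 0.515). The difference between these values was not tested. Without replicate 4 of both groups, the libraries with the most Cd8a, it was 0.51 (adjusted p = 0.182).

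The 2 chains of the IL-18 receptor rose by different amounts on average, with log2 fold changes of 1.27 and 0.69. Across the 9 libraries their log2 CPM moved together (Pearson r 0.87, and 0.76 for deviations from group means). The ratio below follows from the same levels. Per kilobase of exon, Il18r1 exceeded Il18rap by 4.85, 6.90, 6.60 and 4.57 times in the Ezh2-deficient libraries. In the WT libraries the ratio was 4.50, 3.38, 3.73, 2.95 and 3.72. The ratio was higher in every Ezh2-deficient than in every WT library, by 0.64 on the log2 scale (exact permutation test over 126 splits, two-sided p = 0.0159, Benjamini-Hochberg 0.0238 over 3 ratios). The smallest p that this design allows is 0.00794. The ratio of Il18r1 to its neighbour Il1rl1 overlapped between the groups, with 17.4 to 36.8 against 11.9 to 21.4 (difference 0.66, exact permutation p = 0.0635, Benjamini-Hochberg 0.0635). The ratio of Il18r1 to Il1r2, at the other end of the cluster, was 12.6 to 51.0 against 1.80 to 8.95 and did not overlap (difference 2.45, exact permutation p = 0.0159, Benjamini-Hochberg 0.0238). These 2 genes have the highest and lowest log2 fold change of the receptors (1.27 and -1.05), so this separation adds nothing to those values. The 3 ratios were not among the planned tests, and their p-values are descriptive.

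Il1rl1 (ENSMUSG00000026069; chromosome 1, 40429570 to 40465415, protein coding), which encodes the IL-33 receptor ST2, stood at 11.6, 18.2, 20.3 and 10.5 CPM in Ezh2-deficient libraries 1 to 4. In WT libraries 1 to 5 it stood at 14.9, 8.27, 4.30, 9.37 and 13.2 CPM. The groups overlapped, since Ezh2-deficient replicates 1 and 4 lay within the WT range. Its mean was 15.1 ± 4.84 CPM (SD, n = 4) against 10.01 ± 4.19 CPM (SD, n = 5), a log2 fold change of 0.59 that missed the threshold (SE 0.33, 95% interval -0.13 to 1.31, edgeR adjusted p = 0.214). The 2 Ezh2-deficient libraries with a hypoxia score below 0 held the higher levels. Within the libraries below 0 the log2 fold change was 1.10 (adjusted p = 0.23), and it was 0.01 within those above 0 (adjusted p = 0.979). Il1rl1 passed in 0 of 20 alternatives, with an adjusted p of 0.116 to 0.979. The gene has transcripts of 567 codons, which encode the receptor in the membrane, and of 337 codons, which end earlier and encode the soluble form, and counts per gene do not separate them.

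Il1rap (ENSMUSG00000022514), the accessory chain of the IL-1, IL-33 and IL-36 receptors, stood at 11.5, 15.2, 14.6 and 16.4 CPM in Ezh2-deficient libraries. WT libraries held 13.2, 14.4, 11.9, 10.03 and 13.3 CPM. The groups overlapped, and the means of 14.4 ± 2.07 CPM (SD, n = 4) and 12.6 ± 1.68 CPM (SD, n = 5) were close. The log2 fold change was 0.20 (SE 0.14, 95% interval -0.10 to 0.50, edgeR adjusted p = 0.319). Its transcripts of 570 codons encode a membrane form and those of 360 codons a soluble one, and counts per gene do not separate them.

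Il1r2 (ENSMUSG00000026073; chromosome 1, 40074079 to 40125231, protein coding), the decoy, stood at 4.45, 4.66, 1.96 and 8.49 CPM in Ezh2-deficient libraries 1 to 4. In WT libraries 1 to 5 it stood at 9.20, 12.6, 6.34, 17.2 and 5.82 CPM. Ezh2-deficient replicate 4 lay within the WT range, and the other 3 lay below every WT library. Its mean was 4.89 ± 2.69 CPM (SD, n = 4) against 10.2 ± 4.75 CPM (SD, n = 5). That is a log2 fold change of -1.05 (SE 0.42, 95% interval -1.99 to -0.11, unadjusted p = 0.0312, edgeR adjusted p = 0.0975), so Il1r2 missed the threshold over all genes. In both groups the libraries with a hypoxia score above 0 included the highest levels, 17.2 CPM in WT replicate 4 and 8.49 CPM in Ezh2-deficient replicate 4. With the score as a covariate the log2 fold change was -0.83 (adjusted p = 0.0282), and without Ezh2-deficient replicate 4 it was -1.49 (adjusted p = 0.036). Within the libraries above 0 it was -1.0 (adjusted p = 0.0819) and within those below 0 it was -0.90 (adjusted p = 0.265), and in both sets every Ezh2-deficient library was below every WT library.

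**Figure D2:**
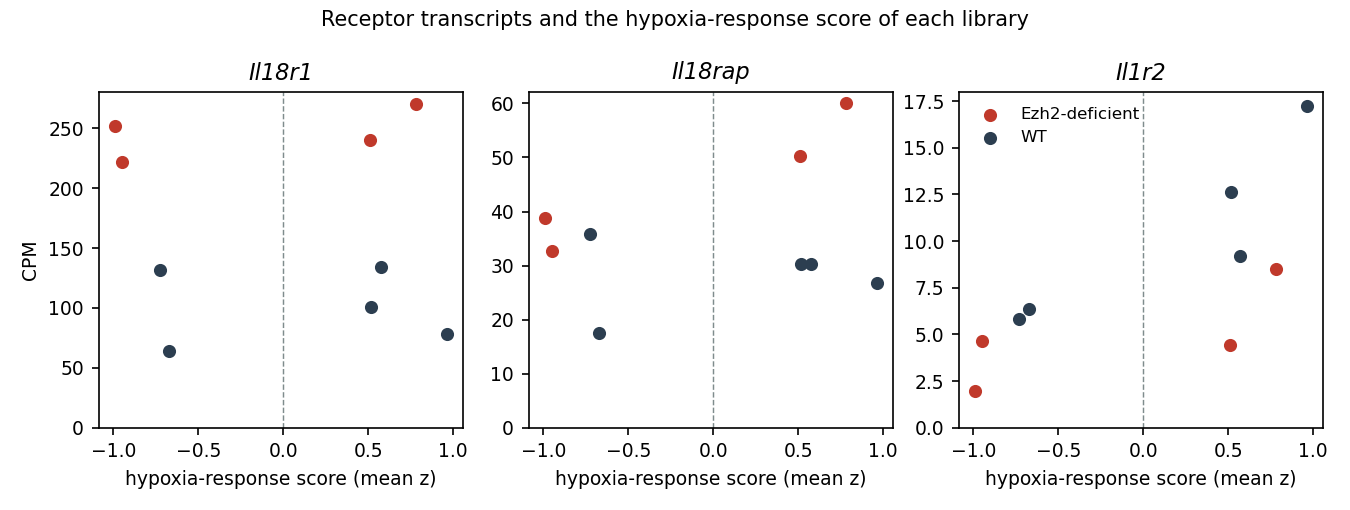
CPM of Il18r1, Il18rap and Il1r2 (vertical axes, each from 0) against the hypoxia score of the library (mean z, horizontal axis) in 4 Ezh2-deficient and 5 WT libraries, with a dashed line at 0. Il18r1 is higher and Il1r2 lower in the Ezh2-deficient libraries on both sides of the line. The Il18rap values stand further apart to its right (50.2 and 60.0 against 26.9 to 30.3 CPM) than to its left.

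Il1r1 (ENSMUSG00000026072; chromosome 1, 40225080 to 40317257), the signalling receptor of IL-1, was near the lower limit of what these libraries show. Ezh2-deficient libraries held 41, 12, 7 and 92 of its counts, or 1.16, 0.274, 0.211 and 1.496 CPM. WT libraries held 85, 21, 33, 44 and 29 counts, or 1.44, 0.648, 0.947, 1.16 and 0.542 CPM. Ezh2-deficient replicates 1 and 4, with a hypoxia score above 0, were 4 or more times as high as replicates 2 and 3. Its log2 fold change was -0.26 (SE 0.55, 95% interval -1.44 to 0.93, edgeR adjusted p = 0.769), an interval that takes in a 2-fold fall. Its sign turned without Ezh2-deficient replicate 3 (0.02) and within the libraries with a score above 0 (0.28).

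Il1rl2 (ENSMUSG00000070942; chromosome 1, 40324610 to 40367562), the IL-36 receptor, stood at 3.21, 2.42, 2.89 and 3.87 CPM in Ezh2-deficient libraries. WT libraries held 2.55, 4.07, 1.69, 4.02 and 3.48 CPM. All 4 Ezh2-deficient values lay within the WT range. Its log2 fold change was -0.03 (SE 0.27, 95% interval -0.61 to 0.56, edgeR adjusted p = 0.958), and its sign turned in 8 of 20 alternatives. Receptor genes that overlap other annotated genes could share reads with them. Gm17970 within Il1rl2 had 56 counts over all libraries against 1234 of Il1rl2. Gm16894, on the other strand of Il1r2, had 82 against 3085, and Gm37347, on the same strand as Il1r2, had 34. How many reads were shared or left out cannot be told from these counts, since the counting tool and its strand setting are not known.

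Per kilobase of exon, the order of mean levels over the 9 libraries was Il18r1, Il18rap, Il1r2, Il1rl1, Il1rap, Il1rl2 and Il1r1. Il18r1 was at 51.0 ± 4.199 CPM per kb in Ezh2-deficient and 21.1 ± 6.48 in WT libraries, and Il18rap at 9.29 ± 2.49 and 5.76 ± 1.38. Il18r1 exceeded Il18rap in 9 of 9 libraries. Il18rap exceeded Il1r2 in 7 of 9, and in WT libraries their spreads overlapped, with Il1r2 at 5.37 ± 2.49 CPM per kb. In Ezh2-deficient libraries Il1r2 was at 2.56 ± 1.41 CPM per kb, close to Il1rl1 at 2.20 ± 0.703. Il1rl1 and Il1rap did not differ beyond their spread, as Il1rl1 was the higher in 6 of 9 libraries by a mean ratio of 1.14. Il1rap exceeded Il1rl2 and Il1rl2 exceeded Il1r1 in 9 of 9 libraries.

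Along the chromosome, the log2 fold changes ran from -1.05 at Il1r2 over -0.26 and -0.03 at Il1r1 and Il1rl2 to 0.59, 1.27 and 0.69 at Il1rl1, Il18r1 and Il18rap. The nearest protein-coding gene upstream of the cluster, the kinase gene Map4k4, did not pass (328 ± 19.8 against 316 ± 7.84 CPM, log2 fold change 0.06, edgeR adjusted p = 0.563), and neither did Rfx8 beyond it (-0.36, adjusted p = 0.754). Downstream, Slc9a4 had 0 counts in all 9 libraries, which allows up to 0.0924 CPM in the shallowest library. The next gene, Slc9a2, which encodes a sodium-hydrogen exchanger (chromosome 1, 40680574 to 40769273), was at 2.28, 4.50, 6.71 and 3.30 CPM in the Ezh2-deficient libraries. Its WT levels were 0.998, 0.432, 0.430, 0.714 and 1.23 CPM, with replicates 1 and 5 the highest, as for Il18r1 and Il1rl1. Slc9a2 rose 5.38-fold with no overlap (log2 fold change 2.43, SE 0.38, adjusted p = 0.00121), whereas Mfsd9 after it did not pass (0.08, adjusted p = 0.873).

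**Figure D3:**
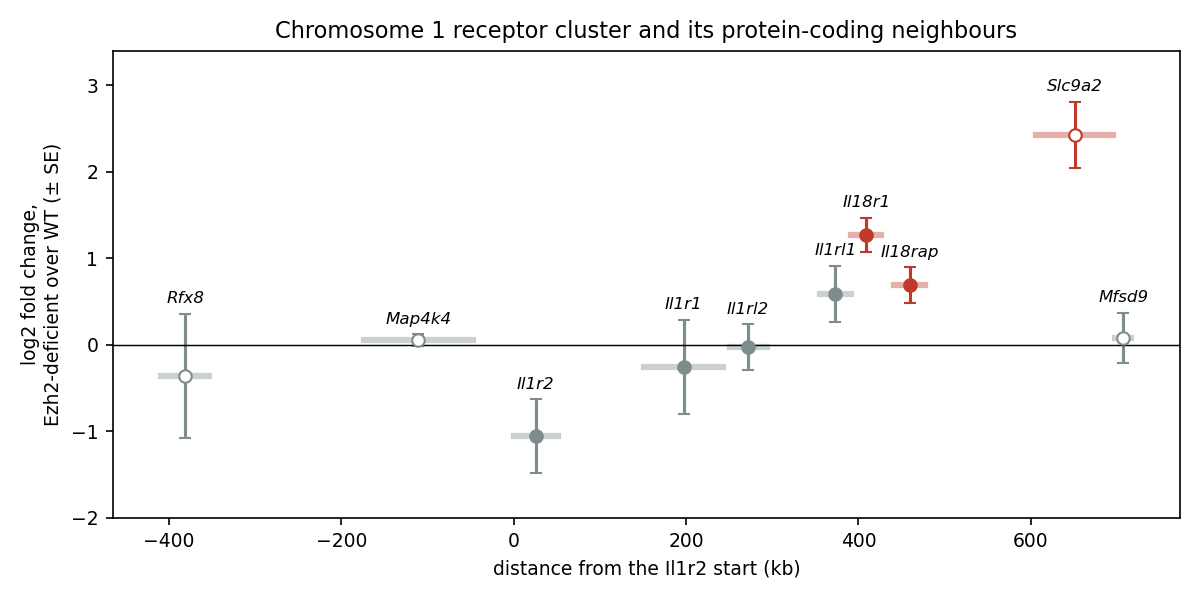
Log2 fold change (± SE of the edgeR fit, 4 Ezh2-deficient over 5 WT libraries) of the 6 receptor genes (filled) and tested protein-coding neighbours (open) against distance from the Il1r2 start in kb, with horizontal bars for gene extent and red for an adjusted p under 0.05. Il18r1, Il18rap and Slc9a2 are the red points, and Il1r2 at the left end of the cluster lies lowest at -1.05.

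Genes that followed each receptor were looked for, with predicted names (Gm, Rik) and clone identifiers left out. Those whose log2 CPM followed Il18r1 most closely over the 9 libraries were Rasgrp1, an activator of Ras in T cells, Prrg4 and Scn4b, a sodium channel subunit gene. Pearson r was 0.99 for each, and 0.95 for deviations from group means. All 3 rose, with log2 fold changes of 0.87, 0.59 and 3.32 (edgeR adjusted p = 0.000466, 0.00334 and 0.000345). Il18rap was followed by Serinc1, Vps54 and Nsd3 (0.99 each, and 0.98 for deviations). Il1rl1 was followed by Anapc13 (0.97 and 0.97), Atp8a2 (0.94 and 0.93) and Ccn2 (0.93 and 0.92). Il1r1 was followed by the NK receptor gene Klrc1 (0.97 and 0.97), Sra1 (0.96 and 0.96) and Cr2 (0.95 and 0.96). For Il1r2 they were Ttc16 (0.97 and 0.95), Gzf1 (0.96 and 0.95) and Slc35d3 (0.96 and 0.94). For Il1rl2 they were Icos, a costimulatory receptor gene (0.94 and 0.94), Abraxas2 (0.93 and 0.94) and Gramd2 (0.92 and 0.94), and for Il1rap Nt5dc1 (0.95 and 0.93), Stag3 (0.91 and 0.89) and Cyfip1 (0.90 and 0.91). These are the highest values each among the genes of the 13685 tested that were not left out. The libraries share depth and culture differences, and the values are given as a description.

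Transcripts of the ligands of these receptors were low or had 0 counts in these libraries, and ligand protein was not measured. Of 11 ligand and antagonist genes 7 had 0 counts, among them Il1a, Il1b and the IL-36 genes Il1f6, Il1f8 and Il1f9, and of the 3 tested 0 passed. Il33, the ligand of ST2, was at 1.01, 1.32, 1.02 and 2.0 CPM in Ezh2-deficient and 0.930, 0.864, 0.689, 0.291 and 0.505 CPM in WT libraries. The groups did not overlap, but the log2 fold change of 1.04 missed the threshold (SE 0.37, edgeR adjusted p = 0.0644). Il18bp, whose product binds IL-18 and keeps it from the receptor, was at 5.29 ± 0.851 against 3.75 ± 0.504 CPM with no overlap (0.50, adjusted p = 0.0631). Il18 itself had 54 and 51 counts per group (0.24, adjusted p = 0.832). Il1rn, the IL-1 receptor antagonist, was too low to be tested, with 10 counts over the Ezh2-deficient and 60 over the WT libraries. Sigirr, an inhibitory receptor of the family, was at 92.0 ± 11.1 against 111 ± 21.6 CPM (-0.27, adjusted p = 0.167). Of 11 genes of ligand maturation and the inflammasome 1 passed, against 21.9% of all genes. It was Nlrp3, at 0.67 ± 0.12 against 0.241 ± 0.163 CPM (1.52, adjusted p = 0.0492).

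Downstream of the receptors, 8 of 30 tested signalling genes rose and 1 fell, against 13.1% and 8.8% of all genes, with a median of 0.19. Those that rose included brakes and ligases of the pathway. Irak3, which holds back the IRAK complex, was at 8.65, 6.99, 6.56 and 5.14 CPM in Ezh2-deficient and 3.25, 3.09, 2.55, 3.70 and 3.42 CPM in WT libraries, without overlap (log2 fold change 1.09, SE 0.19, edgeR adjusted p = 0.00192). Irak2 rose by 0.50 (57.2 ± 6.67 against 40.6 ± 1.65 CPM, adjusted p = 0.00262). The ubiquitin ligase gene Peli1 rose by 0.56 (252 ± 32.3 against 171 ± 22.0 CPM, adjusted p = 0.00449), and Mapkapk2, a kinase downstream of p38, by 0.33 (adjusted p = 0.0109). Peli2, Mapk8, Mapk14 and Map3k7 rose as well, and the kinase gene Map2k3 fell by 0.28 (adjusted p = 0.0204). The core of the pathway missed the threshold. Myd88 was at 77.6 ± 4.84 against 88.6 ± 3.39 CPM (-0.19, adjusted p = 0.0721) and Irak4 at -0.28 (adjusted p = 0.0538), both without overlap. Groups did not overlap for 21.2% of all genes. Traf6 was at -0.29 (adjusted p = 0.0926) and Irak1 at -0.06 (adjusted p = 0.548).

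Of 12 feedback genes that NF-kappaB is known to induce 0 rose and 1 fell (median -0.10), where 13.1% of all genes rose and 8.8% fell. That was Bcl3, at 61.5 ± 4.61 against 94.2 ± 16.4 CPM (log2 fold change -0.62, edgeR adjusted p = 0.00496). Toll-like receptors use the same adaptor, and of 8 tested 1 rose, a share near the 13.1% of all genes. It was Tlr6, at 6.70 ± 0.907 against 3.97 ± 0.476 CPM (0.75, adjusted p = 0.00685).

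**Figure D4:**
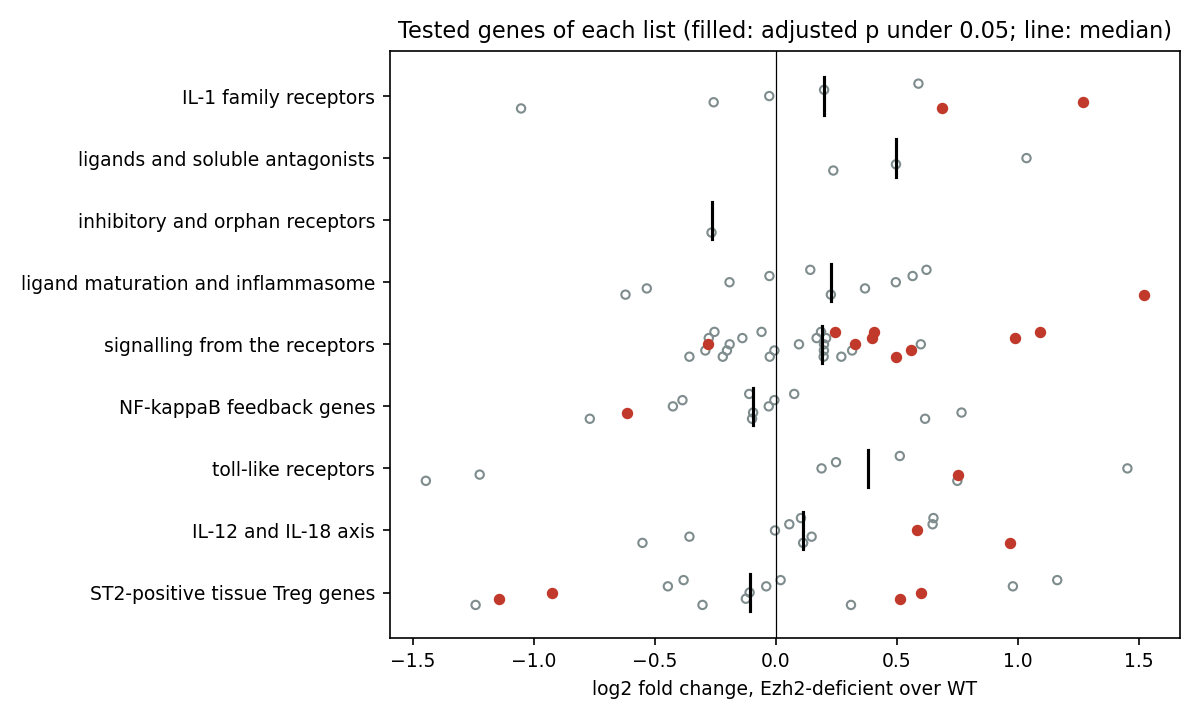
Log2 fold change (4 Ezh2-deficient over 5 WT libraries) of each tested gene of 9 lists, with filled points for an edgeR adjusted p under 0.05 and a vertical line at each list's median. The medians lie between -0.27 and 0.50, and the receptor row has its filled points at 0.69 and 1.27.

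Genes that act with IL-18 included 2 of 11 that rose and 0 that fell (median 0.11), near the 13.1% of all genes that rose. Stat4, which carries the IL-12 signal, was at 58.9, 61.1, 74.0 and 70.8 CPM in Ezh2-deficient and 34.6, 31.3, 28.9, 34.2 and 40.0 CPM in WT libraries, with no overlap (log2 fold change 0.97, SE 0.11, edgeR adjusted p = 0.000141). Ifngr1, a chain of the interferon-gamma receptor, rose by 0.58 (862 ± 47.6 against 576 ± 118 CPM, adjusted p = 0.0107). Tbx21, the T helper 1 transcription factor gene, was at 1.25 ± 1.35 against 1.87 ± 0.83 CPM (-0.55, adjusted p = 0.529), and Ifng was at 0.369 ± 0.149 against 0.239 ± 0.162 CPM (0.65, adjusted p = 0.398).

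Among genes of ST2-positive tissue Tregs, 2 of 15 rose and 2 fell (median -0.11), near the 13.1% and 8.8% of all genes. Cd44 rose by 0.51 and Nfil3 by 0.60, and Irf4 and Tigit fell (log2 fold change -0.92 and -1.14; edgeR adjusted p = 0.00287, 0.0326, 0.00404 and 0.0254). Gata3, a transcription factor known to act on Il1rl1, was at 76.3 ± 13.3 against 75.2 ± 13.7 CPM (0.02, adjusted p = 0.94), and the growth factor gene Areg at 1.80 ± 0.988 against 0.789 ± 0.34 CPM (1.16, adjusted p = 0.0846). Among genes of the IL-1 and T helper 17 axis, the chemokine receptor gene Ccr6 fell (4.44 ± 1.91 against 23.7 ± 10.6 CPM, log2 fold change -2.40, edgeR adjusted p = 0.00248). Il6ra fell by 0.35 (adjusted p = 0.0279), and Il6st and Il21r rose by 0.73 and 0.29 (adjusted p = 0.000432 and 0.0414).

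Other cells known for these receptors were looked for by their markers. Of 7 NK cell and ILC1 markers, Ncr1, Klra8 and Klra4 had 0 counts, and 0 of 2 tested passed. The summed level was 3.91 to 19.7 CPM in Ezh2-deficient and 3.31 to 10.7 CPM in WT libraries. Eomes alone was at 3.91 to 17.2 CPM in Ezh2-deficient and 3.20 to 9.62 CPM in WT libraries. Of 9 mast cell and basophil markers 6 had 0 counts, Fcer1a, Cma1 and Tpsb2 among them, and the sums were 0.12 to 0.564 against 0.0309 to 0.561 CPM. For ILC2, cells rich in ST2, Il13 had 0 counts and Il5 had 2 and 3 counts per group. The summed ILC2 markers were 54.5 to 64.5 CPM against 8.72 to 17.1 CPM, most of it from Ramp1 alone, at 52.9 ± 2.99 against 11.95 ± 2.91 CPM. Calca and Ramp1 rose (log2 fold change 6.22 and 2.15, edgeR adjusted p = 6.01e-05 and 1.14e-05), and the other 2 tested did not pass. Myeloid markers summed to 23.1 to 30.6 CPM against 12.2 to 19.8 CPM, with Itgam and Adgre1 higher (0.80 and 1.75, adjusted p = 0.00817 and 0.00515). Fcgr3 and Cd68 did not pass (-0.62 and 0.03), Cd14 had 1 count over the Ezh2-deficient and 42 over the WT libraries, S100a8 had 1 and 0 counts, and S100a9 and Csf3r had 0. Beside these calls, 13.1% of all genes tested rose and 8.8% fell. B cell markers Cd79a and Ighm fell (-1.38 and -0.49, adjusted p = 0.00716 and 0.0187). Of 5 tested epithelial and stromal markers 1 rose, near the share of all genes (Krt18, at 1.08 against 0.50 CPM), and Krt8 had 0 counts. Whether such cells had a part in the receptor levels was not tested.

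**Figure D5:**
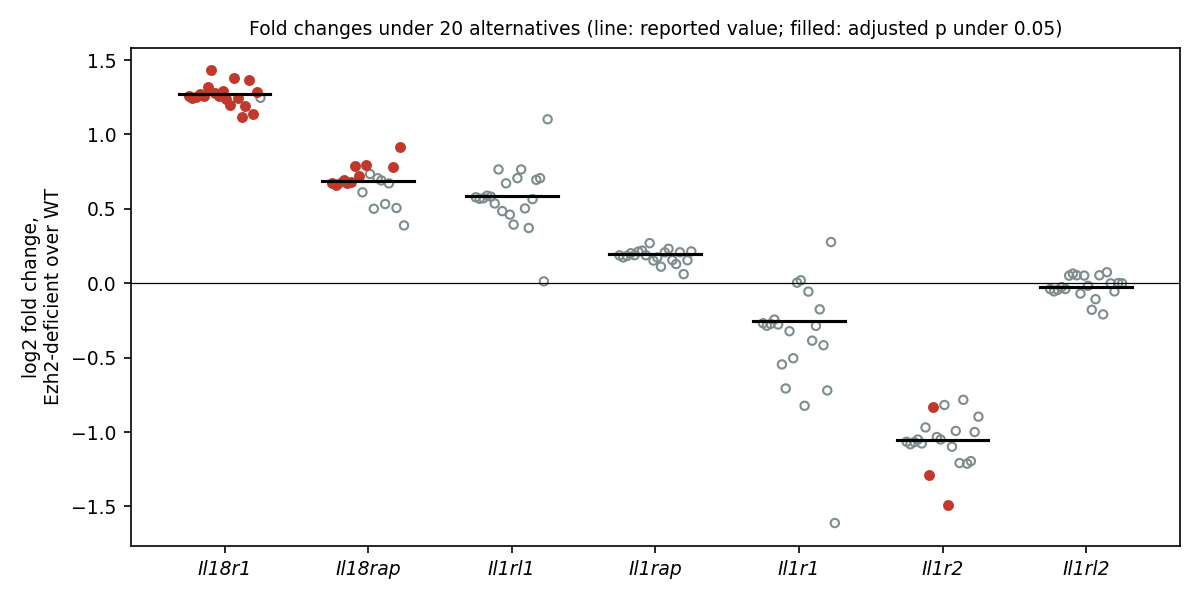
Log2 fold changes of the 7 receptor genes under 20 alternative analyses of the same libraries (points, filled for an adjusted p under 0.05), with a bar at the reported value. Il18r1 is filled in 19 of 20, Il18rap in 10 of 20 and Il1r2 in 3 of 20, and Il1r1 and Il1rl2 lie on both sides of 0.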

How the data were processed

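RNA libraries of 9 cultures (4 Ezh2-deficient, 5 WT) were made with a stranded mRNA kit, per the labels. The authors deposited raw counts per gene, whole numbers without normalization. STAR and GRCm38 were used, per the submitters' processing notes, while the counting tool is not given in the sources used here, nor is its strand setting or annotation. Symbols and positions came from GENCODE M21, which holds 42548 of the 43432 identifiers.

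edgeR's filter kept 13685 of the 22839 genes that had a count. Counts were scaled by TMM and tested with the robust quasi-likelihood F-test (edgeR 4.0.16, limma 3.58.1, R 4.3.3; biological coefficient of variation 0.206), with Benjamini-Hochberg adjustment over all 13685 genes and a threshold of 0.05. CPM use TMM-scaled totals, log2 CPM a prior count of 2, and lengths the exons of protein-coding transcripts. Group values are mean ± SD, fold changes Ezh2-deficient over WT, SE and 95% intervals from the fit. The test was tried on simulated counts. No 2 libraries were duplicates (chi-square per degree of freedom at least 21.9). Reads carry no molecular identifiers, so depth bounds cover counting error only.

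The receptors and gene lists were chosen with earlier results of these data known. Named were all 7 receptors and the 3 genes most correlated with each, with predicted Gm and Rik names and clone identifiers left out. Also named were up to 4 passing members of each list, the cluster's neighbours up to 3 on each side, and fixed pathway genes. Peli2, Mapk8, Mapk14, Map3k7, Map2k3, Il21r, Areg, Ifng, Il5, the myeloid genes that did not pass and the Gm genes fall outside this rule and were named after their values were seen. Alternatives changed scaling, filter, test (DESeq2 1.42.0, limma-voom), covariate, block or libraries. The fits within hypoxia score classes and without the highest Cd8a libraries were chosen after seeing the data. Some results are not reported here.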

Additional observations from a re-analysis of the deposited data

How the results depend on the processing

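Over 20 alternatives, 3001 genes passing became 1764 within the 5 libraries with a hypoxia score above 0 and 570 within the 4 below 0, and 1972 to 3168 with 1 library left out, the lowest without Ezh2-deficient replicate 3. The 2 receptor genes passing became 1 without a filter on low counts, 1 without the highest Cd8a library of each group, 0 within the libraries with a score below 0 and 1 to 2 with 1 library left out. Il18r1 was among them in 19 alternatives and Il18rap in 10. Il1r1 turned sign without Ezh2-deficient replicate 2 (0.00398) or 3 (0.0204; -0.823 to 0.0204 with 1 library left out) and within the libraries with a score above 0 (0.28). Il1rl2 was at 0.0512 with limma-voom, 0.0535 with the score as a covariate, 0.00157 within the libraries above 0 and 1.97e-05 within those below 0, and at -0.209 to 0.0739 with 1 library left out, above 0 without Ezh2-deficient replicate 2, WT replicate 2 or WT replicate 4. Il1rl1 and Il1rap passed in 0 of 20. For these changes the cause was not tested.

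Replicate numbers 1 to 4 occur in both groups, but the labels give them no shared animal or day. Deviations from the group means of same-numbered libraries correlated at 0.153, -0.0834, 0.114 and 0.187, and 0 of 4 Ezh2-deficient libraries correlated best with the WT library of the same number. With a replicate block the count was 2751 genes and 3 receptor genes. Il1r2 then passed at -1.29 (adjusted p = 0.00164), Il18r1 was at 1.43, Il18rap at 0.79, and Il1rl2 turned to 0.0651. Precision is limited by 4 and 5 libraries and, for Il1r1, by counts as low as 7.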
